A study of Homo sapiens with 60 samples.

Results

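Gene expression at the lowest dose of 6 herbal extracts was set against vehicle at 24 h. The cells were A549, an established line from a human lung carcinoma of the non-small cell type. The low-dose side held 17 libraries and the vehicle side 3, which are 20 of the 60 libraries of the series, and each was assigned to its group by its label. Sayeok-tang (n = 3) and Bojungikgi-tang (n = 2), formulas of several herbs extracted in water, were given at 20 µg/mL. Ethanol extracts given at 20 µg/mL were those of Zingiberis Rhizoma Recens, which is fresh ginger, of Zingiberis Rhizoma, which is dried ginger, and of Pinelliae Tuber, here called Pinellia (n = 3 each). Scutellariae Radix, here Scutellaria, was an ethanol extract given at 7.6 µg/mL (n = 3). The vehicle was DMSO, at 0.1% in the sample labels and 2% in the series text, and that of the extract cultures is not given in the sources used here. Extracts are numbered in 3 sets of 2, and the vehicle has a set label of its own, so handling and treatment cannot be told apart in any comparison with vehicle. The labels do not say whether replicates were separate cultures, and p-values measure the spread between these libraries only.

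The low-dose libraries held 20.6 to 30.1 M counts (mean 24 M) and the vehicle libraries 25.4 to 30.8 M (mean 28.5 M; two-sided exact permutation test over the 20 libraries, p = 0.0132, adjusted over 3 library measures p = 0.0396). Genes detected averaged 23310 at low dose and 23750 in vehicle (exact p = 0.0491, adjusted p = 0.0736), and mitochondrial transcripts took 9.78 ± 0.933% and 9.05 ± 0.417% of counts (SD; exact p = 0.214, adjusted p = 0.214). The cells showed the markers of the line in every library: the keratin KRT8 ran from 3020 to 3490 CPM (counts scaled to library size) at low dose and from 3520 to 3670 CPM in vehicle, the aldo-keto reductase AKR1B10 from 2710 to 3160 CPM and 2780 to 3180 CPM, and CDKN2A, which is deleted in A549, had 0 counts throughout. Markers of other cell types were low in both groups. The 10 blood markers summed to 8.00 to 10.8 CPM at low dose and 8.11 to 8.48 CPM in vehicle, with 2 of them at 0 in all 20 libraries, and of the 2 tested CD68 passed (log2 change 0.26). The 7 endothelial markers summed to 4.38 to 6.25 CPM at low dose and 5.24 to 6.33 CPM in vehicle, the 8 fibroblast markers to 34.7 to 41.8 CPM and 36.5 to 40.9 CPM, and the 8 markers of other cultured lines to 1.71 to 2.96 CPM and 2.25 to 2.60 CPM, with none called. In bulk RNA fewer cells of a type and less RNA per cell cannot be told apart.

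A549 cells keep features of the lung epithelium. They carry an active NRF2 programme, make secretory proteins such as mucins, complement factors and acute-phase proteins, and respond to plant compounds through the aryl hydrocarbon receptor (AhR), a ligand-activated transcription factor that induces the CYP1 monooxygenases and its own repressors. Their translation machinery is encoded by short, abundant mRNAs for ribosomal proteins, and their respiratory chain by nuclear genes together with 13 protein-coding genes of the mitochondrial genome.

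Averaged over the 6 extracts, low doses differed from vehicle in many genes by small amounts. The secretory genes CP, MUC5B and MUC5AC, the matrix gene FN1 and the AhR targets CYP1B1 and TIPARP were higher, and mRNAs of cytosolic ribosomal proteins, mitochondrial ribosomal proteins and respiratory chain subunits were lower. Of 16797 genes tested with edgeR's quasi-likelihood test, 2727 (16.2%) had an adjusted p under 0.05, 1172 higher (6.98%) and 1555 lower (9.26%). The median size of their log2 changes was 0.15, and 84 changed by at least 1.5-fold and 30 by at least 2-fold. In 944 genes (5.62%) the 17 low-dose and the 3 vehicle libraries did not overlap in CPM, 380 with all low-dose libraries higher (2.26%) and 564 with all lower (3.36%). The count rested in part on vehicle library 3: without it 1272 genes were called, of which 1185 were also among the 2727, against 2546 without vehicle library 1 and 1867 without vehicle library 2.

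**Figure D1:**
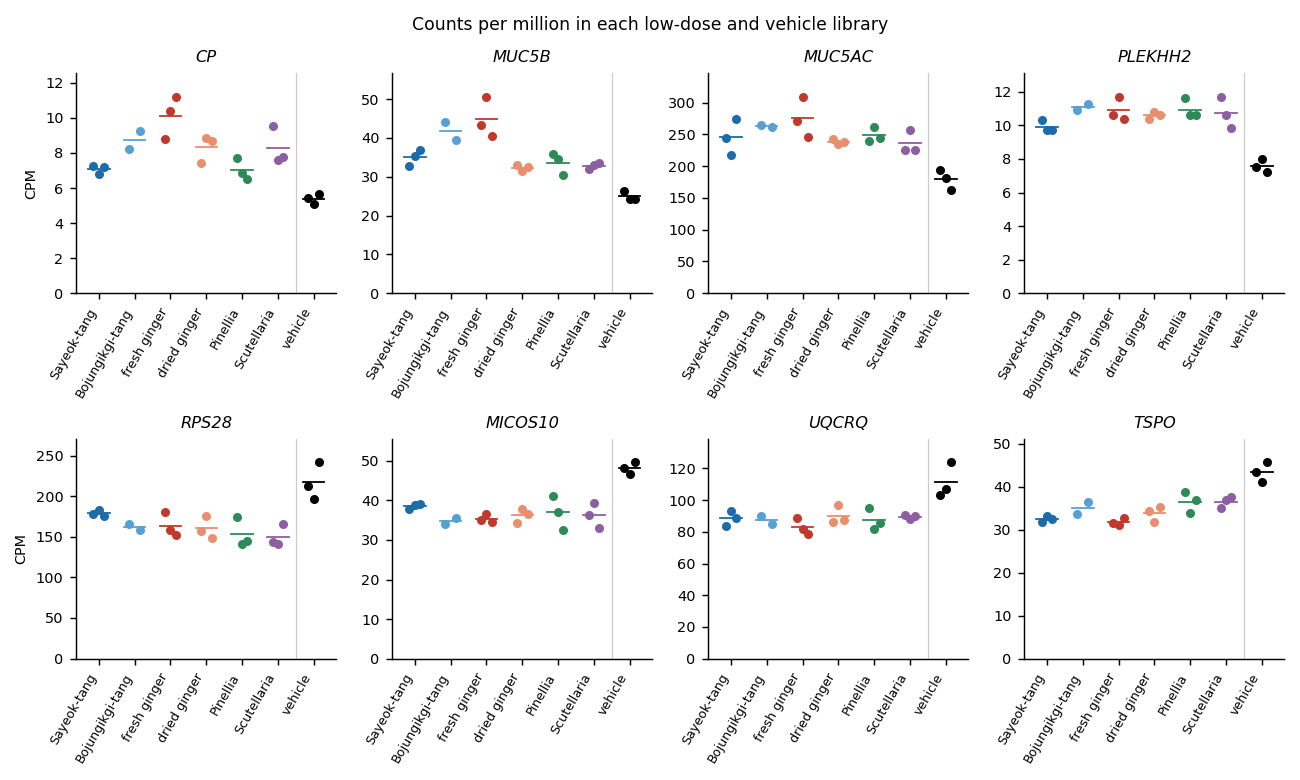
CPM (vertical axes, from 0) of 4 genes that were higher and 4 that were lower at low dose; each point is 1 library, bars are group means, and the 6 low-dose groups stand left of vehicle. In all 8 genes the 17 low-dose libraries lie on one side of the 3 vehicle libraries, which was a condition for choosing them.

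Ceruloplasmin (CP, chromosome 3, 149162410 to 149222055), the copper-carrying ferroxidase of plasma, had 6.52, 7.75 and 11.2 CPM as the lowest, median and highest of the low-dose libraries, against 5.43, 5.08 and 5.64 CPM in vehicle. Every low-dose library was above every vehicle library (log2 change 0.61 ± 0.08 SE, adjusted p = 3.46e-06). The gel-forming airway mucin MUC5B (chromosome 11, 1223066 to 1262172) had 30.5, 34.5 and 50.6 CPM at low dose, against 26.3, 24.4 and 24.4 CPM in vehicle (0.54 ± 0.06, adjusted p = 2.33e-07). Its neighbour MUC5AC (chromosome 11, 1157953 to 1201138), the other main airway mucin, had 218, 244 and 309 CPM, against 194, 181 and 162 CPM (0.48 ± 0.08, adjusted p = 6.72e-04). Neither mucin overlapped between the groups, but CP and both mucins were picked among genes without overlap. Fibronectin (FN1, chromosome 2, 215360440 to 215436172), a glycoprotein of the extracellular matrix, had 621, 675 and 796 CPM at low dose, against 548, 533 and 541 CPM in vehicle (0.37 ± 0.03, adjusted p = 2.55e-09).

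In the list of epithelial and alveolar genes 6 of 14 tested members rose and 0 fell, with a median log2 change of 0.14 where the median of all genes tested was 0.005; the rest of the 22 members were below the count filter. Besides the 2 gel-forming mucins these were the membrane mucin MUC1 (0.57), the adhesion protein E-cadherin, CDH1 (0.16), and the tight junction genes CLDN2 (0.19) and TJP1 (0.13). Among acute-phase and complement genes 4 of 14 rose and 0 fell (median 0.13), among them CP, complement C3 (0.16) and the fibrinogen chain FGB (0.14). Transferrin, TF, at 0.72, did not pass the test. In the TGF-beta and matrix list FN1 rose with COL12A1, LAMA3 and LTBP3, and 6 of 27 members fell, led by the actin-binding smooth muscle protein TAGLN, which had 27.7, 32.4 and 38.0 CPM at low dose, against 39.9, 41.0 and 41.9 CPM in vehicle (−0.33 ± 0.04). With a trend on gene length removed the list had 1 member higher, FN1, and 10 lower. Of the fatty acid synthesis genes 4 of 14 rose and 0 fell: the desaturases SCD (0.15 ± 0.03) and FADS1 (0.14 ± 0.03), the carboxylase ACACA (0.15) and the regulator SREBF1 (0.13). Cholesterol synthesis genes were split, with 2 of 25 higher and 5 lower (median −0.02). For these lists the shares among all genes tested were 6.98% higher and 9.26% lower. Without vehicle library 3 the genes called higher numbered 466, against 1172 with it.

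Other genes with large differences and no overlap included the transcription factor SP9 (0.52 ± 0.09), PLEKHH2 (0.49 ± 0.06), the Schlafen family gene SLFN5 (0.43 ± 0.06) and the zinc finger gene ZNF514 (0.40 ± 0.06). PLEKHH2 had 9.72, 10.6 and 11.7 CPM at low dose, against 7.53, 8.01 and 7.24 CPM in vehicle. SLFN5 had 16.3, 19.8 and 24.9 CPM, against 14.3, 14.7 and 15.3 CPM. The 3 entries BCL2L2-PABPN1 (1.05 ± 0.26), HNRNPUL2-BSCL2 (0.59 ± 0.11) and MT-ATP8 (0.56 ± 0.13) were also higher, but each overlaps another gene on the same strand, so that their shares of reads are uncertain. Without vehicle library 3 neither BCL2L2-PABPN1 nor MT-ATP8 was called, nor was BCL2L2-PABPN1 without vehicle library 2. BSCL2, the gene that the second of these runs through, differed the other way (−0.35 ± 0.06).

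CYP1B1 and TIPARP, 2 targets of the AhR, rose. CYP1B1 (chromosome 2, 38066973 to 38109902), a monooxygenase that metabolises oestrogens and aromatic hydrocarbons, had 59.3, 67.7 and 85.8 CPM at low dose, against 58.3, 54.1 and 56.7 CPM in vehicle, without overlap (0.29 ± 0.04, adjusted p = 3.81e-07). TIPARP (chromosome 3, 156673235 to 156706770), an ADP-ribosyltransferase that represses the receptor, had 36.3, 39.8 and 48.3 CPM, against 35.8, 35.2 and 34.3 CPM (0.19 ± 0.04, adjusted p = 6.94e-04). CYP1A1, the classic target, stayed near 1 CPM, with 0.719, 1.02 and 1.56 CPM at low dose, against 0.830, 0.781 and 1.04 CPM in vehicle (0.27 ± 0.18, adjusted p = 0.335). Of the 7 members tested 2 rose and 1, NQO1, fell (−0.07), against 6.98% higher and 9.26% lower among all genes tested.

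The AhR binds DNA at a core of 5 bases, GCGTG. The promoter windows of TIPARP and CYP1A1 are shown because both genes are direct targets and hold the core, in capitals, on either strand (GCGTG or CACGC). Each is the 250 bases before a RefSeq transcription start on GRCh38.p14, written 5′ to 3′ in the direction of the gene: the first of 3 TIPARP windows, chr3:156674340-156674589 (plus strand), with 2 cores, and the CYP1A1 window, chr15:74725529-74725778 (minus strand), with 1.
TIPARP: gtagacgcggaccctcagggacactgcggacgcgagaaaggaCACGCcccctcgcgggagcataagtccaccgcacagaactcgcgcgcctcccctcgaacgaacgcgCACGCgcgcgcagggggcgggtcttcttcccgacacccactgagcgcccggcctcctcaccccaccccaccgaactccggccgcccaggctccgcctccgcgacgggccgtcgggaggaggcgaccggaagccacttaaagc
CYP1A1: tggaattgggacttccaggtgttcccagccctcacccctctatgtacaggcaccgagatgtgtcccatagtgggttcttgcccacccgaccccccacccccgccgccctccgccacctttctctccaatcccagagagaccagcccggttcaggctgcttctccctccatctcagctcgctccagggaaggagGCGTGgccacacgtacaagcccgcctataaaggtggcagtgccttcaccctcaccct
Of 35116 RefSeq windows of this length 11313 (32.2%) hold the core at least once, so that a match is common. The other 2 TIPARP windows hold none. Windows of AHRR, a repressor of the receptor whose change did not pass the test, hold 1 and 2 cores and are not shown. For CYP1B1 no window was available.

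The broadest decrease at low dose was in mRNAs of the ribosome. Of 53 cytosolic ribosomal protein genes 44 fell and 0 rose, with a median log2 change of −0.18. Among all genes tested 9.26% fell. RPS28 had 141, 158 and 183 CPM as the lowest, median and highest low-dose values, against 213, 197 and 242 CPM in vehicle (−0.43 ± 0.08, adjusted p = 0.0015). RPLP0, a protein of the ribosomal stalk, had 1390, 1480 and 1570 CPM, against 1700, 1790 and 1900 CPM (−0.28 ± 0.03, adjusted p = 8.04e-09), and RPS19 had 923, 958 and 1060 CPM, against 1150, 1160 and 1280 CPM (−0.31 ± 0.03). In 23 of the 53 genes the 2 groups did not overlap, against 3.36% of all genes tested that were lower without overlap. Without vehicle library 3, 32 of the 53 fell. The summed level of the list was 33260 to 36360 CPM at low dose and 37710 to 41110 CPM in vehicle. Mitochondrial ribosomal proteins followed, with 23 of 33 lower and 0 higher (median −0.13; 13 lower without vehicle library 3), among them MRPL17 (39.8, 42.6 and 55.1 CPM at low dose, against 57.8, 56.5 and 55.6 CPM in vehicle; −0.38 ± 0.05).

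Nuclear genes of the respiratory chain fell in 27 of 36 members and rose in 0 (median −0.16), and 14 fell without vehicle library 3. The share of all genes tested that fell was 9.26%. UQCRQ, a small subunit of complex III, had 78.5, 88 and 96.8 CPM at low dose, against 103, 107 and 124 CPM in vehicle (−0.34 ± 0.06, adjusted p = 5.56e-04). COX7A2, a subunit of complex IV, had 74.2, 78.5 and 86.7 CPM, against 90.2, 99.9 and 97.4 CPM (−0.28 ± 0.04), and NDUFB2 of complex I changed by −0.20 ± 0.03. Both groups were thus separated in each of these genes, and UQCRQ was picked among genes without overlap. Other mitochondrial proteins were among the 10 largest decreases without overlap: MICOS10, a core protein of the cristae junction complex (32.5, 36.5 and 41.2 CPM at low dose, against 48.3, 46.8 and 49.7 CPM in vehicle; −0.41 ± 0.04, adjusted p = 1.08e-07), the microprotein MTLN (−0.36 ± 0.05), the complex II assembly factor SDHAF2 (−0.35 ± 0.07) and the outer membrane protein TSPO (−0.34 ± 0.04). The 13 protein-coding genes of the mitochondrial genome did not go with them: 0 fell, and MT-ATP8 alone was called higher (median 0.18). BEST1, a chloride channel (−0.46 ± 0.05), and ANAPC11, the RING subunit of the anaphase-promoting complex (−0.39 ± 0.04), completed the list of large decreases.

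**Figure D2:**
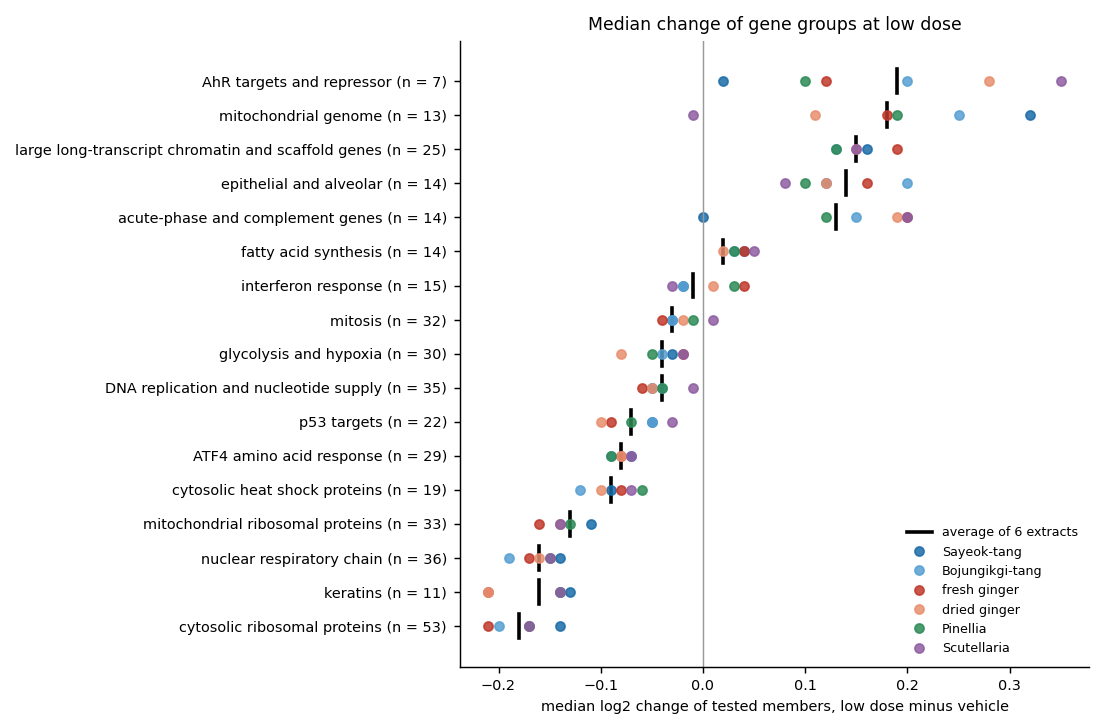
Median log2 change of the tested members of 17 gene lists (rows, with the number tested), low dose minus vehicle; black bars are the average of the 6 extracts and coloured points the single extracts, which share the vehicle libraries. The ribosomal, respiratory chain and keratin lists lie below 0 for every extract, while the mitochondrial genome spreads between −0.01 and 0.32.

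Several stress lists held more lower than higher genes, against 9.26% lower and 6.98% higher among all genes tested. Of 29 genes of the ATF4 amino acid response 12 fell and 1, the folate enzyme ALDH1L2 (0.21), rose (median −0.08). The amino acid transporter subunit SLC3A2 had 935, 990 and 1040 CPM at low dose, against 1090, 1110 and 1120 CPM in vehicle (−0.17 ± 0.02), and the folate enzyme MTHFD2 changed by −0.14 ± 0.02. The heat shock list, mostly cytosolic but with the mitochondrial HSPD1 and HSPE1, had 10 of 19 lower (median −0.09). The chaperone HSP90AA1 was at −0.16 ± 0.03 and HSPD1, also called, at −0.13 ± 0.02. Of the p53 targets 8 of 22 fell, with BAX at −0.15 ± 0.03 and CDKN1A at −0.13 ± 0.03. HMOX1, the inducible haem oxygenase, had 141, 150 and 159 CPM at low dose, against 171, 161 and 179 CPM in vehicle (−0.17 ± 0.03, adjusted p = 9.18e-05). The 24 NRF2 targets as a list were split, 3 higher and 5 lower. Without vehicle library 3 the counts of lower genes were 8 in the ATF4 list, 5 in the heat shock list and 7 in the p53 list. The unfolded protein response list of the endoplasmic reticulum had 6 of 19 higher and 2 lower (median 0.03): the co-chaperone DNAJC3 had 50.3, 53.8 and 58.7 CPM at low dose, against 48.3, 47.6 and 48.1 CPM in vehicle (0.18 ± 0.03, adjusted p = 6.87e-05), and the disulfide isomerase PDIA3 changed by 0.13 ± 0.03. DDIT3 was −0.16 ± 0.06 (adjusted p = 0.0879).

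Among glycolysis and hypoxia genes 9 of 30 fell and 1 rose, the carbonic anhydrase CA12 (0.13 ± 0.03), and TPI1 was at −0.14 ± 0.03. Keratins fell in 6 of 11, with KRT7 at −0.16 ± 0.03. DNA replication genes fell in 8 of 35, with the thymidine kinase TK1 at −0.22 ± 0.03, and mitosis genes went both ways, 10 lower and 5 higher of 32. Cyclin B1 (CCNB1) had 203, 215 and 226 CPM at low dose, against 238, 242 and 248 CPM in vehicle (−0.17 ± 0.03), whereas the spindle protein ASPM, which has a long mRNA, had 174, 186 and 196 CPM, against 163, 160 and 136 CPM (0.27 ± 0.03). Of 16 host RNAs of snoRNAs 8 fell and 1 rose, with SNHG5 at −0.29 ± 0.03. Among all genes tested 9.26% were lower and 6.98% higher. Without vehicle library 3 the lower genes were 5 of 30 for glycolysis, 4 of 11 for keratins, 4 of 35 for replication, 6 of 32 for mitosis and 5 of 16 for the snoRNA hosts. Over all genes, 806 were called lower without that library, against 1555 with it. The nuclear RNA MALAT1 had 553, 614 and 667 CPM at low dose, against 744, 749 and 780 CPM in vehicle (−0.30 ± 0.03, adjusted p = 2.55e-09), and 4 other nuclear-retained RNAs of the 11 tested, TUG1 (0.14 ± 0.03) and KCNQ1OT1 (0.24 ± 0.06) among them, rose.

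Among lists of inflammation, the 15 interferon response genes tested lay between −0.39 and 0.43 (median −0.01). NF-kB genes had 0 of 18 higher and 2 lower, a share near the 9.26% of all genes that were lower, the cytokine IL32 (−0.41) and SOD2 (−0.09). Metallothioneins had 2 of 5 lower, MT2A (−0.41) and MT1X (−0.30), neither of them called without vehicle library 3. HMGCS1, the sterol-regulated synthase (−0.02 ± 0.03), NR4A1 (−0.03 ± 0.04) and the BMP antagonist GREM1 (0.12 ± 0.09) did not pass.

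The direction of change followed the length of the gene's exons. This length counts every annotated exon of a gene, overlaps merged, and can exceed that of its mRNA. With genes split into 10 classes of equal size by length, in the shortest class (75 to 1405 bases) the median log2 change was −0.04, with 1.8% of genes higher and 9.88% lower, and in the longest class (10010 to 205000 bases) it was 0.07, with 24% higher and 3.35% lower. All 6 extracts showed the gradient against the shared vehicle, with medians of −0.061 to −0.029 in the shortest class and 0.055 to 0.081 in the longest. The difference in level between short and long genes, relative to the mean of the libraries, was −0.056 to 0.034 (median −0.019) on the log2 scale in the low-dose libraries and 0.01, 0.075 and 0.167 in vehicle, with vehicle library 3 the highest. Between low and medium doses the medians ran from −0.014 to 0.015 over the same classes.

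**Figure D3:**
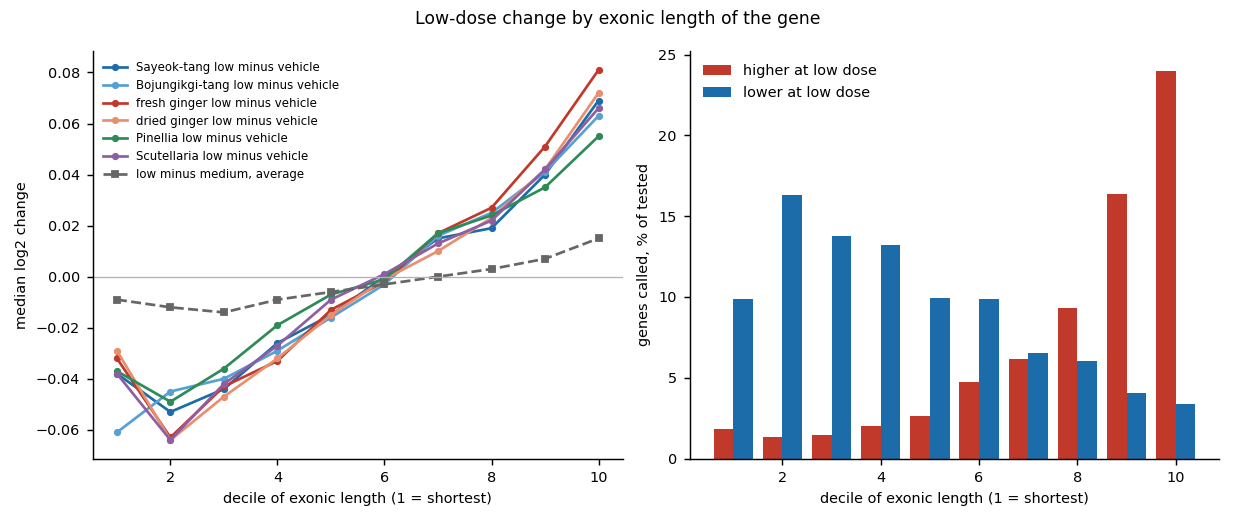
Left, median log2 change (vertical axis) by class of exonic length (horizontal axis, shortest first) for each extract's low dose minus vehicle and for low minus medium dose; right, percent of tested genes called higher and lower at low dose. Short genes lean lower and long genes higher against vehicle, and the line of low minus medium dose stays close to 0.

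With a length trend removed from each library 2180 genes were called, 774 higher and 1406 lower, of which 1767 were among the 2727. The ribosomal and respiratory lists then had 41 of 53 and 23 of 36 members lower, and mitochondrial ribosomal proteins 15 of 33. By exonic length the cytosolic ribosomal list had a median of 3271 bases, within a class whose median change was −0.025 (2930 to 3651 bases). A trend on mRNA length was not tested. A list chosen for long mRNAs, 25 chromatin and scaffold genes such as KMT2A and VPS13A, had 17 members higher and 0 lower (median 0.15) and 14 higher with the trend removed (median 0.08). VPS13A had 112, 115 and 120 CPM at low dose, against 104, 105 and 87.2 CPM in vehicle. FN1 changed by 0.28, MUC5B by 0.46 and CP by 0.58 once the trend was removed, and PNISR, ID2, KCNQ1OT1, COL12A1, LAMA3, LTBP3, NQO1, CHAC1 and HSPA1A were no longer called. Without vehicle library 3, 5 of the 25 long mRNAs were called, with a median of 0.085.

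Single extracts were compared with the same 3 vehicle libraries, so their changes are not independent of each other. Fresh ginger differed in 2092 genes (12.5%), dried ginger in 1474 (8.78%), Scutellaria in 1248 (7.43%), Sayeok-tang in 1051 (6.26%), Bojungikgi-tang in 840 (5%) and Pinellia in 762 (4.54%). In each, more genes were lower than higher. Fresh ginger had 936 higher (5.57%) and 1156 lower (6.88%), dried ginger 592 (3.52%) and 882 (5.25%), and Scutellaria 526 (3.13%) and 722 (4.3%). Sayeok-tang had 439 higher (2.61%) and 612 lower (3.64%), Bojungikgi-tang 285 (1.7%) and 555 (3.3%), and Pinellia 302 (1.8%) and 460 (2.74%). Without vehicle library 3 the counts were 1164 for fresh ginger, 688 for dried ginger, 597 for Scutellaria, 447 for Sayeok-tang, 415 for Bojungikgi-tang and 318 for Pinellia, which had 445 without vehicle library 2. Leaving out 1 library of the extract itself gave 1335 for fresh ginger (library 2), 824 for dried ginger (library 1), 732 and 688 for Scutellaria (libraries 1 and 2), 681, 591 and 516 for Sayeok-tang (libraries 1, 2 and 3), 216 and 83 for Bojungikgi-tang (libraries 2 and 3) and 239 and 290 for Pinellia (libraries 2 and 3). CP was higher with every extract, from 0.39 ± 0.11 in Pinellia to 0.91 ± 0.10 in fresh ginger, and so was MUC5B, from 0.36 ± 0.07 in dried ginger to 0.83 ± 0.07 in fresh ginger. CYP1B1 ran from 0.14 ± 0.05 in Pinellia, not past the test (adjusted p = 0.0816), to 0.52 ± 0.05 in Scutellaria (adjusted p = 1.8e-09). TIPARP passed in Scutellaria (0.35 ± 0.05) and dried ginger (0.23 ± 0.05) and lay between 0.12 and 0.17 in the other 4.

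Leading genes of single extracts were picked among called genes of at least 5 CPM without overlap between the extract and vehicle. They included entries with uneven counts. RN7SL2, an RNA of the signal recognition particle that carries no poly(A) tail, was the largest such decrease in Sayeok-tang (−3.86 ± 0.88), Bojungikgi-tang (−3.79 ± 1.02) and dried ginger (−3.73 ± 0.84). It had 2.06, 3.74 and 19.4 CPM as the lowest, median and highest of the low-dose libraries, against 52.1, 69.1 and 5.96 CPM in vehicle, so that 2 of the 3 vehicle libraries stood far above all others and the third lay among the low-dose values. EIF3CL, a near copy of EIF3C with which it can exchange reads, led the increases in Scutellaria (35.7, 69.8 and 86.2 CPM there, against 9.61, 2.83 and 14.4 CPM in vehicle) and spread from 1.95 to 86.2 CPM over the 17 low-dose libraries. The divergent transcript MVP-DT was the largest decrease by this rule in Pinellia (−0.57 ± 0.15) and Scutellaria (−0.71 ± 0.16), and SDHAF2 in fresh ginger (−0.62 ± 0.10). The calls of RN7SL2, of EIF3CL and of MVP-DT in both extracts were each lost when one of several libraries was left out, and that of SDHAF2 was kept.

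Few genes were called between the 6 extracts at low dose. A test of any difference among the 6 groups does not compare them with vehicle levels. The vehicle libraries share its fit, so they enter the count filter, the scaling and the estimate of spread. The test called 19 of 16797 genes (0.113%), and 1113 had an unadjusted p under 0.05. The count was 10 without Sayeok-tang library 1, fresh ginger library 2 or Pinellia library 2, 11 without Sayeok-tang library 2, 39 without fresh ginger library 3 and 45 without vehicle library 3. DESeq2 called 79, and edgeR without the count filter 291. Sayeok-tang and Bojungikgi-tang differed in 0 genes by edgeR and by DESeq2, with 707 at an unadjusted p under 0.05, and in 14 by edgeR without the count filter. Fresh and dried ginger differed in 2 (0.0119%) and Pinellia and Scutellaria in 1 (0.00595%), with 610 and 753 at an unadjusted p under 0.05. These counts do not show that the extracts act alike. The median size of the log2 difference over all genes was 0.06 between the formulas, 0.05 between the gingers and 0.06 between Pinellia and Scutellaria.

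Fresh ginger is the raw rhizome and dried ginger the same rhizome dried, and at 20 µg/mL they differed in MUC5B and H19. MUC5B had 43.3, 50.6 and 40.5 CPM in fresh ginger, against 33.0, 31.4 and 32.4 CPM in dried ginger (0.47 ± 0.07, adjusted p = 0.00269). H19, an imprinted long noncoding RNA, had 110, 102 and 105 CPM in fresh ginger, against 89.0, 86.0 and 83.3 CPM in dried ginger (0.30 ± 0.05, adjusted p = 0.00269). In both genes the 3 fresh ginger libraries lay above the 3 dried ginger libraries. The MUC5B call was lost in a fit of all 60 libraries (adjusted p = 0.716) and both were lost without dried ginger library 2 (adjusted p = 0.0816 each), and that of H19 also without fresh ginger library 1 (adjusted p = 0.0973). Pinellia had less CYP1B1 than Scutellaria, with 59.3, 64.5 and 62.0 CPM, against 85.8, 75.6 and 81.0 CPM (−0.38 ± 0.05, adjusted p = 1.07e-05), at doses that differ, 20 and 7.6 µg/mL.

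Over all 6 groups HSPA1B, a stress-inducible HSP70, also differed (adjusted p = 2.71e-06). It had 194, 176 and 173 CPM in Sayeok-tang and 187 and 184 CPM in Bojungikgi-tang, the 2 formulas, and between 203 and 239 CPM in the 12 ginger, Pinellia and Scutellaria libraries, with 206, 211 and 224 CPM in vehicle. HSPA1B and its near-identical neighbour HSPA1A, also called (adjusted p = 0.0086), can exchange reads. CYP1B1 (adjusted p = 5.53e-05) was highest in Scutellaria and lowest in Pinellia. PDK4, a kinase that holds back pyruvate oxidation, had 32.8, 34.9 and 34.4 CPM in fresh ginger and 25.8, 26.5 and 24.7 CPM in Sayeok-tang, with 23.6, 23.0 and 23.1 CPM in vehicle (adjusted p = 0.00255). PTGS2, the inducible cyclooxygenase, had the same order at its ends, 28.3, 29.8 and 32.1 CPM in fresh ginger and 22.6, 21.3 and 24.5 CPM in Sayeok-tang (adjusted p = 0.0365), a call lost without any 1 of 10 libraries or with the replicate block.

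**Figure D4:**
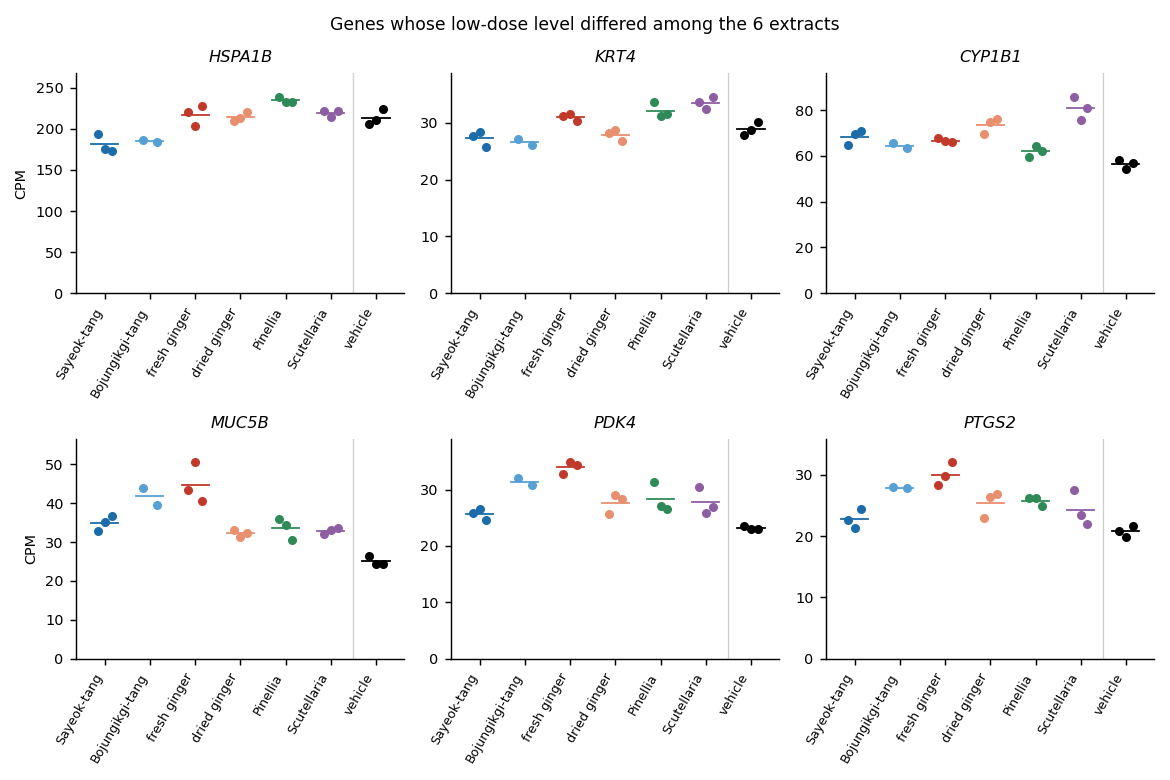
CPM (vertical axes, from 0) of 6 genes that differed among the low-dose groups or between sets; each point is 1 library, bars are group means, and vehicle stands at the right. HSPA1B is lower in the 2 formulas, CYP1B1 is highest in Scutellaria, and MUC5B, PDK4 and PTGS2 are highest in fresh ginger.

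Between the 3 sets 27 genes (0.161%) differed, which counts set and extract together, from 7 without dried ginger library 1 to 83 without vehicle library 3. HSPA1B (adjusted p = 3.07e-07) and the keratin KRT4 (adjusted p = 8.2e-04) had the firmest differences of the 4 named. KRT4 had 25.8 to 28.4 CPM in the 5 formula libraries, 26.8 to 31.6 CPM with the gingers and 31.2 to 34.6 CPM with Pinellia and Scutellaria, with 27.8, 28.7 and 30.2 CPM in vehicle. The zinc finger gene ZNF628 (adjusted p = 0.0378) and the muscle-type carnitine transferase CPT1B (adjusted p = 0.0457) were lost without 1 of several libraries.

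Low doses were then set against the 5-fold higher medium doses of the same extracts, with 17 libraries on each side. Here 436 of 17291 genes (2.52%) were called, 301 higher at low dose (1.74%) and 135 lower (0.781%). The count was 206 without dried ginger and 245 without Sayeok-tang. Of genes with at least 5 CPM, CP was the largest increase at low over medium dose, with 8.27 CPM as the mean of 6 extracts at low dose and 6.13 CPM at medium dose (0.42 ± 0.05, adjusted p = 2.29e-08), and 5.38 ± 0.28 CPM in vehicle (SD, n = 3). The water and glycerol channel AQP3 averaged 10.0 CPM at low and 7.59 CPM at medium dose (0.41 ± 0.05, adjusted p = 3.28e-09), and 7.64 ± 1.74 CPM in vehicle. MUC5B (0.40 ± 0.06), PTGS2 (0.33 ± 0.03), PDK4 (0.21 ± 0.03) and FN1 (0.20 ± 0.03) were likewise higher at low than at medium dose. In all 6 of these genes the low-dose mean was thus above both the medium-dose mean and the vehicle mean. Set against vehicle in a fit of their own, added after the data were seen, the medium doses gave 0.18 for CP, −0.02 for AQP3, 0.14 for MUC5B, −0.01 for PTGS2, 0.11 for PDK4 and 0.17 for FN1, none past the test. That fit called 1094 genes, and 2306 without fresh ginger medium library 2. Not passing in it does not show a level equal to vehicle.

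CYP1B1, TIPARP and many ATF4 genes were lower at low than at higher doses, averaged over the extracts. In single extracts CYP1B1 was not always so: the exceptions were Pinellia, with 61.9 CPM at low and 55.1 CPM at high dose, and Scutellaria, with 80.8 CPM at low and 56.3 CPM at medium dose. CYP1B1 averaged 69.3 CPM at low, 80.1 CPM at medium and 117 CPM at high dose (low minus medium −0.19 ± 0.02, low minus high −0.65 ± 0.02), and TIPARP 40.2, 44.7 and 64.5 CPM. GREM1 averaged 5.51 CPM at low and 7.09 CPM at medium dose (−0.33 ± 0.04, adjusted p = 2.22e-08), and CHAC1, which breaks down glutathione and is induced by ATF4, 5.28 and 6.36 CPM (−0.26 ± 0.05). Of the 29 ATF4 genes 15 were lower at low than at medium dose and 28 lower than at high dose, and 0 were higher. Of all genes tested 0.781% were lower at low than at medium dose and 17.1% lower than at high dose. CHAC1 at low dose also lay below vehicle (−0.28 ± 0.09, adjusted p = 0.02). In the ribosomal and respiratory chain lists few genes differed between low and medium dose: of 53 cytosolic ribosomal genes 2, of 36 respiratory chain genes 0 and of 33 mitochondrial ribosomal genes 1 were lower at low than at medium dose, with medians of −0.04, −0.02 and −0.03. At low against high dose 25 of the 53 were lower and 0 higher, 3 of the 36 were higher and 0 lower, and 5 of the 33 were lower and 3 higher. Among all genes tested 17.1% were higher there and 17.1% lower, a share that the lists of 36 and 33 did not exceed. At medium dose 24 of the 53, 10 of the 36 and 8 of the 33 were below vehicle, against 4.25% of all genes tested. The medians against vehicle were −0.15, −0.16 and −0.11 at medium dose, near the −0.18, −0.16 and −0.13 at low dose.

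**Figure D5:**
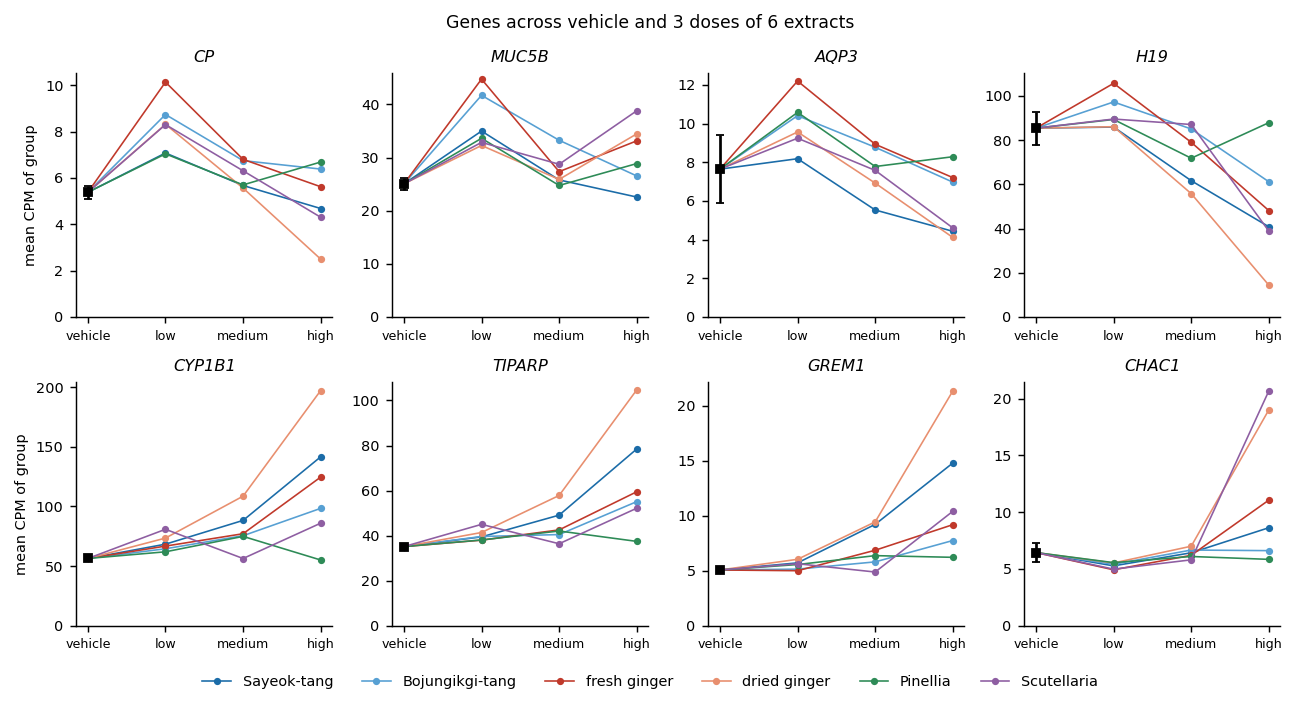
Mean CPM (vertical axes, from 0) of 8 genes in vehicle (black square, with SD over 3 libraries) and at 3 doses of each extract, 1 line per extract. CP, MUC5B and AQP3 peak at low dose in most extracts, CYP1B1, TIPARP, GREM1 and CHAC1 are highest at high dose in most, and H19 falls beyond the low dose in most.

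Against high doses 5918 genes (34.2%) differed, 2955 higher and 2963 lower at low dose (17.1% each). H19 averaged 92.3 CPM at low and 48.5 CPM at high dose (1.11 ± 0.02), and the orphan receptor NR4A3 8.26 and 5.05 CPM (0.85 ± 0.05). NIBAN1, a stress-induced gene, averaged 11.1 CPM at low and 34.1 CPM at high dose (−1.23 ± 0.03), and STC2, a secreted glycoprotein, 27.1 and 68.1 CPM (−1.10 ± 0.02). At low dose NIBAN1 (0.06 ± 0.07), STC2 (−0.08 ± 0.04) and NR4A3 (−0.09 ± 0.07) did not pass the test against vehicle. All 32 mitosis genes were higher at low than at high dose, and 18 of 19 heat shock genes. Medium doses, averaged in the same way, differed from vehicle in 1094 of 16778 genes (6.52%), 381 higher (2.27%) and 713 lower (4.25%). Calls numbered 514 without vehicle library 2, 250 without vehicle library 3 and 2306 without fresh ginger medium library 2.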

How the data were processed

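Strand-specific mRNA libraries of A549 cells were sequenced as 100 bp pairs, per the labels' protocols. The deposited values are the authors' expected counts per gene, not all of them whole numbers. FastQC 0.11.9, Trim Galore 0.6.5, STAR 2.7.3a, RSEM 1.3.3 and the build hg38 are named, with no order or role, in the submitters' processing notes, and the annotation release is not given in the sources used here. Gene names, coordinates and lengths came from GENCODE 29. Of 269 value columns, 209 match no sample of the 60 and were not used.

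Expected counts were rounded and tested with edgeR 4.0.16 in R 4.3.3 (quasi-likelihood F-test, filterByExpr with a minimum count of 10, TMM scaling), with Benjamini-Hochberg adjustment over all genes tested and calls at an adjusted p under 0.05. Low doses and vehicle (20 libraries) were fitted together, as were the 3 doses of the 6 extracts (51 libraries). The average gives each extract equal weight. Errors of log2 changes are standard errors, and CPM are on 1 TMM scale over all 60 libraries. DESeq2 1.42.0, other scalings and filters, a replicate block, length and GC trends (limma 3.58.1) and leaving out libraries were alternatives. The calculations were tested on simulated data with the same spread for all genes and no effect of set or gene length. This does not show how well changes as small as most of those called here are found. Named genes are the 10 largest called changes in each direction whose groups do not overlap and whose mean reaches 5 CPM, from each list with 3 or more calls the 2 of lowest p, up to 4 per other comparison, the largest in each direction per extract, and 11 followed throughout; further members were named after their values were seen. A gene that this rule names is not reported here. The groups and the 41 lists were chosen with earlier results of these data known.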

Additional observations from a re-analysis of the deposited data

Results flagged for a closer look

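Differences between low-dose groups were singled out where a test of the difference itself passed. Among the 6 groups these were MUC5B (adjusted p = 0.00135), PDK4 (adjusted p = 0.00255), PTGS2 (adjusted p = 0.0365) and CYP1B1 (adjusted p = 5.53e-05), all by edgeR's quasi-likelihood test. Between the 3 sets they were HSPA1B (adjusted p = 3.07e-07), KRT4 (adjusted p = 0.00082), ZNF628 (adjusted p = 0.0378) and CPT1B (adjusted p = 0.0457). ZNF628 had 6.90 to 9.59 CPM with Pinellia and Scutellaria and 9.48 to 11.4 CPM with the formulas, and CPT1B had 7.81 to 9.80 CPM and 6.33 to 7.91 CPM. Fresh minus dried ginger was 0.47 on the log2 scale for MUC5B and 0.30 for H19, with all 3 fresh ginger libraries higher in both. Pinellia minus Scutellaria was −0.38 for CYP1B1, with all 3 Pinellia libraries lower. Set and extract cannot be told apart in the differences between sets. The calls of PTGS2, ZNF628 and CPT1B were each lost when 1 of several libraries was left out. Both ginger calls were lost without dried ginger library 2, and that of MUC5B also in a fit of all 60 libraries.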

How the results depend on the processing

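No named gene's called change turned its direction. The 2727 genes called over all extracts became 1710 with set 8 alone and 1381 with set 10 alone, and leaving out 1 library gave 1272 to 2876; 927 (34%) were called in all 20 such fits. Leaving out 1 library gave 447 to 1352 genes for Sayeok-tang, 83 to 1060 for Bojungikgi-tang, 1164 to 2237 for fresh ginger, 688 to 1656 for dried ginger, 239 to 946 for Pinellia, 597 to 1455 for Scutellaria, 10 to 45 among the 6 groups, 7 to 83 between sets, 0 to 4 between the gingers, 1 to 2 between Pinellia and Scutellaria, 0 to 0 between the formulas and 250 to 2306 for medium against vehicle. Low against medium gave 355 to 452 and low against high 5534 to 5873 when 1 low-dose library was left out; their medium and high libraries were not left out. Low against high held 2955 higher and 2963 lower genes, and more higher than lower ones with other size factors (3039 and 2883), DESeq2 (2744 and 2510), the length trend removed (3248 and 2831) or the GC trend removed (3306 and 2865). The same step gave differences of −5.985 to −3.265 M in total counts, −676.9 to −243.9 in genes detected and 0.5 to 0.9005 percentage points in mitochondrial share. Among the 6 groups 291 genes were called without a count filter, 79 by DESeq2 and 44 with the length trend removed, and between sets 224, 72 and 70, and 68 with the GC trend removed. Without the filter the pairs gave 14 (formulas), 18 (gingers) and 11 (Pinellia and Scutellaria); a fit of all 60 libraries gave 1 for the gingers, and DESeq2 gave 2 for Pinellia and Scutellaria. Low against medium gave 245 without Sayeok-tang and 206 without dried ginger. Medium against vehicle gave 1867 in the fit of all 60 libraries, 725 without Sayeok-tang, 2210 without fresh ginger and 678 without dried ginger. The cause was not tested.

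Replicate numbers did not pair the samples: same-numbered low-dose and vehicle libraries correlated at −0.041 to 0.058. A replicate block gave 2638 genes for the average and 2 for Pinellia against Scutellaria. Leaving out 1 library, single named genes kept their side of the threshold in 2124 fits and lost it in 112, of which 14 were without vehicle library 3. Most of these genes were chosen by their calls in the same data, so the total does not measure how stable calls are.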

Other observations

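CYP1B1 and TIPARP were lower with Pinellia than with Scutellaria at low and high dose and higher at the medium dose, values that were looked at after the data were seen. Whether the medium-dose labels of these 2 extracts are exchanged was not tested, and the labels were used as given; an average over the 6 extracts does not depend on it. CYP1B1 averaged 61.9, 74.9 and 55.1 CPM at low, medium and high Pinellia, and 80.8, 56.3 and 86.0 CPM at low, medium and high Scutellaria. TIPARP averaged 38.0, 42.0 and 37.4 CPM with Pinellia and 45, 36.4 and 52.1 CPM with Scutellaria. In the other 4 extracts both genes were higher at each higher dose.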
